A study of Homo sapiens with 12 samples.

Results

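The genes described here are the iron storage, uptake and export genes of human cells, 10 of the 60663 genes in the table of counts: FTL, FTH1, TFRC, STEAP3, SLC11A2, SLC40A1, CP, ACO1, IREB2 and NCOA4. They were chosen by their place in iron handling, and matched by symbol, with counts of these same 12 libraries in view, the JQ1 change of FTL among them; no threshold on a value was applied. All 10 passed the filter on low counts that left 20714 genes for testing, SLC40A1 only through its VHL-positive libraries. RNA was sequenced from RCC4, a clear cell renal carcinoma line, after DNase treatment and depletion of ribosomal RNA. VHL-negative cells had lost VHL, the tumour suppressor that sends hypoxia-inducible factors to degradation, and VHL-positive cells were the same line with VHL put back. Both were grown in high-glucose DMEM with serum and geneticin, and each was given DMSO, the solvent control, or JQ1 at 5 µM, which blocks BET bromodomain proteins and is called a MYC inhibitor in the labels. The labels give 3 libraries in each of the 4 groups. They do not give the duration of treatment, the VHL construct, the number of clones, or whether replicates were separate cultures, so p-values measure only the spread between these libraries, which may be technical.

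Cells take up transferrin-bound iron through the transferrin receptor, reduce it in the endosome and move it into the cytosol. Iron that is not used is stored in ferritin, a shell of light and heavy chains, or leaves through ferroportin. Iron regulatory proteins bind a hairpin in certain messenger RNAs, the iron-responsive element: in a 5′ UTR it restrains translation, and in the 3′ UTR of the transferrin receptor it protects the message from decay. Counts of RNA do not show translation, so protein levels of ferritin and ferroportin were not measured here.

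The hairpins of 4 of the genes are shown because they are the sequence feature by which storage, uptake and export genes are known to be linked. They were found in GENCODE release 29 transcripts on GRCh38 as a C, 5 further bases and the loop CAGTGN, with the 5 bases before the loop paired with the 5 after it (G-T pairs allowed, 0 mismatches), on the transcript strand only. Each is printed 5′ to 3′ as 28 bases of DNA letters, with the loop in capitals.
FTL, 5′ UTR, chr19:48965335-48965362, plus strand: ctcttgcttcaaCAGTGTttggacggaa
FTH1, 5′ UTR, chr11:61967575-61967602, minus strand: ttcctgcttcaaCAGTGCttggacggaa
SLC40A1, 5′ UTR, chr2:189580662-189580689, minus strand: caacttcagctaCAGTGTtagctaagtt
TFRC, 3′ UTR, chr3:196050980-196051007, minus strand: aattatcggaagCAGTGCcttccataat
TFRC, 3′ UTR, chr3:196050576-196050603, minus strand: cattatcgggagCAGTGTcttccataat
TFRC, 3′ UTR, chr3:196050511-196050538, minus strand: ctgtatcggagaCAGTGAtctccatatg
TFRC, 3′ UTR, chr3:196050464-196050491, minus strand: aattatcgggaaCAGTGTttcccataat
The SLC40A1 hairpin lay in 1 of its 5 annotated protein-coding transcripts. That of FTH1 lay in 7 of 8, each of those of TFRC in 3 of 4, and that of FTL in 1 of 1. Across 19684 protein-coding genes this pattern lay in a 5′ UTR of 36 (0.183%), in the coding part of 130 (0.66%) and in a 3′ UTR of 132 (0.671%). The other 6 genes, SLC11A2 among them, had no match to these letters. So strict a pattern can miss elements whose stem is not fully paired. A gene without a match may thus carry one, and TFRC may carry more than those printed. A match is a description of the sequence, and binding was not measured.

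Total counts ran from 15452949 to 32502310 per library. VHL itself checked the labels: it lay at 64.6 to 78.9 CPM (counts relative to the TMM-scaled library size) in VHL-positive DMSO libraries and at 24.9 to 28.2 CPM in VHL-negative ones. With JQ1, VHL itself rose 3.02-fold in VHL-positive cells, from 70.3 to 212 CPM (adjusted p = 3.47e-07), while in VHL-negative cells it went from 26.4 to 32.7 CPM (adjusted p = 0.0674); its part in the differences between the lines under JQ1 was not tested. In CPM without TMM scaling, 11 markers listed for kidney tubule and renal carcinoma summed to at least 2304 in every library. VIM had the highest median (1203 CPM), followed by PAX8 (383 CPM, range 199 to 655) and KRT8 (320 CPM). Of the 11, 8 reached 1 CPM in every library. LRP2, a receptor of mature tubules, stayed at or below 0.377 CPM, CUBN at or below 1.65 CPM, and CA9 ran from 0 to 87.4 CPM. The sum by itself does not identify kidney cells. Summed markers did not exceed 4.41 CPM for macrophages, 0.625 CPM for erythroid cells, 10.9 CPM for endothelial cells and 6.27 CPM for hepatocytes. VHL-negative JQ1 replicate 2 was the shallowest library and had the highest NEAT1 (18333 CPM, also without TMM scaling) and MALAT1 (21812 CPM), nuclear RNAs. Both were higher in every JQ1 library than in every DMSO library, NEAT1 at 4373 to 18333 against 670 to 3166 CPM and MALAT1 at 7574 to 21812 against 1978 to 6729 CPM. The part of this in the changes with JQ1 was not tested. In cultures measured as a whole, fewer cells expressing a gene and less RNA per cell cannot be told apart.

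With JQ1, the ferritin light chain message was several-fold higher in both lines, while the transferrin receptor message did not pass the test in either. Messages for the ferroxidase CP and the importer SLC11A2 fell in both lines, and that for the ferrireductase STEAP3 fell in VHL-negative cells. ACO1 and NCOA4 rose in VHL-positive cells, but the NCOA4 call was lost in 5 of 6 fits that left out a library. The largest difference between VHL-negative and VHL-positive cells was in ferroportin (SLC40A1), which was nearly absent from VHL-negative libraries. A gene is said to rise or fall where edgeR's quasi-likelihood test gave a Benjamini-Hochberg adjusted p under 0.05 over all 20714 genes. Since the list was drawn up with results known, these p-values describe its genes and are not independent support.

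Of the 10 genes, 3 rose and 2 fell with JQ1 in VHL-positive cells, where 31.8% of all tested genes passed (15.3% higher and 16.5% lower). In VHL-negative cells 1 rose and 3 fell, against 32.1% of all genes (14.6% higher and 17.5% lower). The median log2 change of the 10 genes was 0.22 in VHL-positive and 0.0098 in VHL-negative cells, beside -0.027 and 0.034 over all genes. All 10 are annotated as protein-coding. In a fit of protein-coding genes alone, 42.5% of genes passed in VHL-positive and 41.5% in VHL-negative cells. FTL is in both counts of rises, although its rise was known beforehand. Nothing particular to the list is read from these counts.

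**Figure D1:**
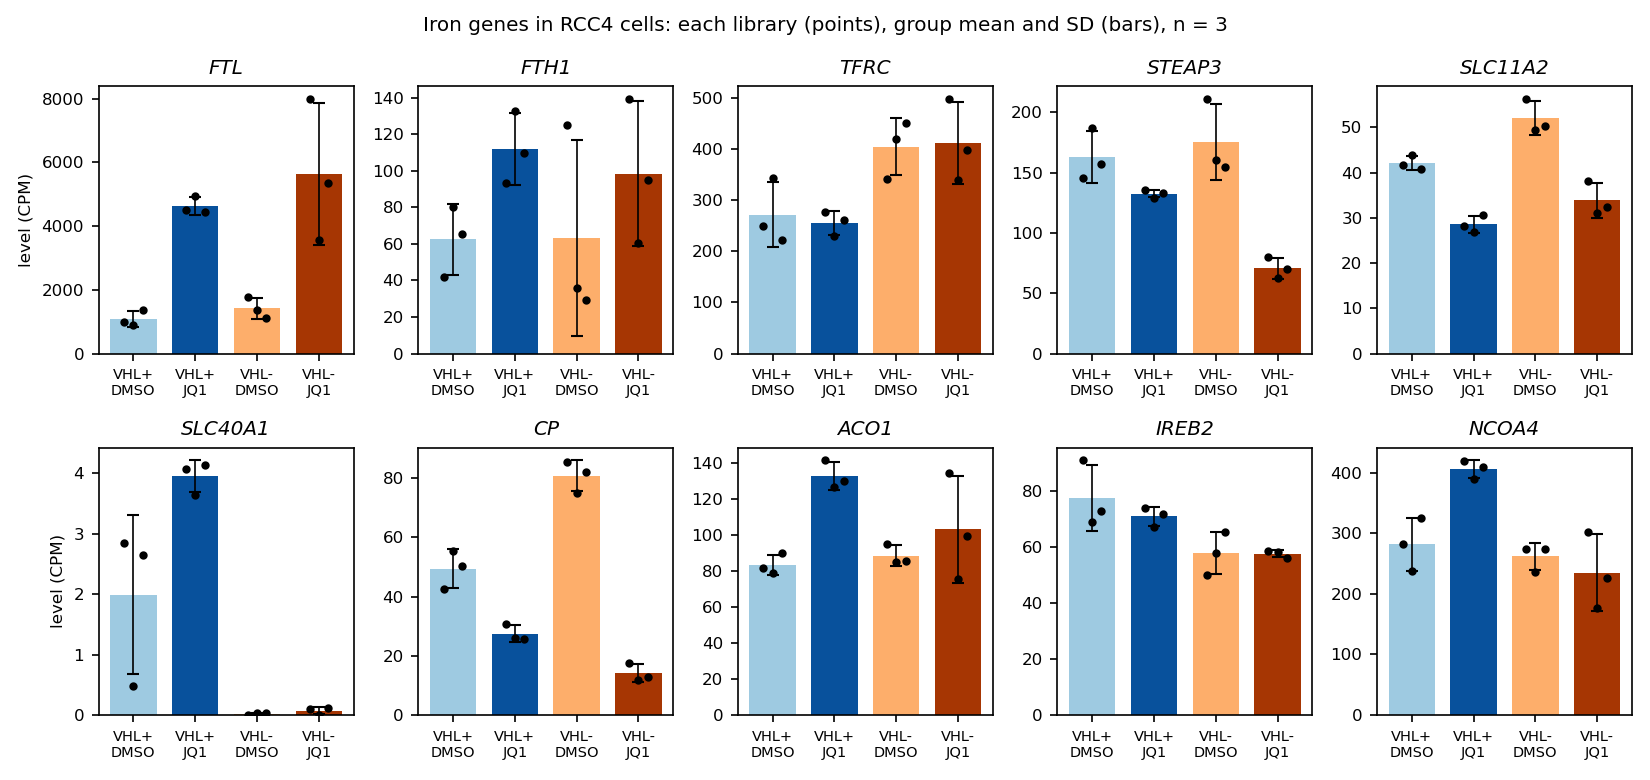
Level in CPM (linear axis from 0) of each of the 10 genes in the 4 groups; points are libraries, bars are group means and error bars are SD (n = 3). FTL stands higher under JQ1 in both lines, SLC40A1 is near 0 in VHL-negative cells, and CP is highest in VHL-negative DMSO libraries (75.1 to 85.3 CPM) and lowest in VHL-negative JQ1 libraries (11.7 to 17.5 CPM).

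FTL (ENSG00000087086, chromosome 19, 48965301 to 48966878) encodes the light chain of ferritin. Its level was 983, 883 and 1381 CPM in VHL-positive DMSO libraries and 4488, 4942 and 4450.4 CPM with JQ1. In VHL-negative cells it was 1775, 1375 and 1109 CPM with DMSO and 7993, 3565 and 5348 CPM with JQ1. Every JQ1 library lay above every DMSO library of both lines, and the JQ1 libraries of VHL-negative cells spread most, with the lowest in the shallowest library. Fitted changes were 4.28-fold (log2 2.10, SE 0.27) and 3.97-fold (log2 1.99, SE 0.27). They are given with no p, because this rise was known when the list was drawn up. The lines did not differ past the threshold under DMSO (log2 0.39, SE 0.26, adjusted p = 0.278) or under JQ1 (log2 0.28, adjusted p = 0.399). The difference between the JQ1 effects was -0.11 on the log2 scale, with a normal 95% interval from -0.82 to 0.61.

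FTH1 (ENSG00000167996, chromosome 11, 61959718 to 61967660) encodes the heavy chain, which carries ferritin's ferroxidase site. Its level was 41.7, 80.2 and 65.5 CPM in VHL-positive DMSO libraries and 93.6, 133 and 110 CPM with JQ1, without overlap. VHL-negative DMSO libraries gave 125, 35.9 and 29.1 CPM, and VHL-negative JQ1 libraries 139, 60.6 and 95.2 CPM. VHL-negative DMSO replicate 1 was thus far above the other two of its group and above 2 of 3 JQ1 libraries. Its mitochondrial share of counts was also the highest of that group, 25.3% beside 13.1% and 9.90%, and the part of this in the FTH1 value was not tested. The change with JQ1 did not pass in VHL-positive cells (log2 0.84 with an SE of 0.42, adjusted p = 0.146) or in VHL-negative ones (log2 0.64, SE 0.42, adjusted p = 0.265). Without VHL-negative DMSO replicate 1, the second became 1.60 with an adjusted p of 0.00153. FTH1 was then lower in VHL-negative than in VHL-positive DMSO cells (log2 -0.94, adjusted p = 0.032). With that library the log2 difference between the lines was 0.019 (adjusted p = 0.981). FTH1 also passed in VHL-positive cells in a fit of those groups alone (0.82, adjusted p = 0.0153). It passed in both lines when no gene was filtered out (0.83 with 1.64e-05, and 0.59 with 0.00447). These changes were close to those of the main fit, so the calls depended on the fit and not on a larger change.

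The count of FTH1 is uncertain for 2 reasons that the annotation shows. BEST1, on the other strand, overlaps 62.4% of its exon bases, and 40.4% of the 50-base windows of its main transcript also occur in transcripts of 15 other genes. For FTL the shared windows were 18.3%, with 2 other genes, and no exon overlap. The strand setting and the handling of reads with several matches are not given in the sources used here. Counts given to 25 FTH1 pseudogenes made up 3.05 to 10.4% of all counts of FTH1 and its pseudogenes in a library, and those of 16 FTL pseudogenes 0.0619 to 0.23%. Of these 41 pseudogenes 9 passed the filter. FTLP3, with the highest mean count, went from 0.522 to 2.55 CPM with JQ1 in VHL-positive cells and from 0.718 to 3.79 CPM in VHL-negative cells. FTH1P8, the next, went from 0.828 to 1.02 CPM and from 0.582 to 1.12 CPM.

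TFRC (ENSG00000072274, chromosome 3, 196027183 to 196082189) encodes the transferrin receptor, the main entry for iron. Its level was 250, 343 and 223 CPM in VHL-positive DMSO libraries and 277, 230 and 262 CPM with JQ1. VHL-negative libraries gave 343, 420 and 452 CPM with DMSO and 499, 339 and 398 CPM with JQ1. The JQ1 and DMSO libraries overlapped in both lines. The change with JQ1 was -0.09 on the log2 scale in VHL-positive cells (95% interval -0.44 to 0.27, adjusted p = 0.760) and 0.025 in VHL-negative cells (-0.33 to 0.38, adjusted p = 0.932). TFRC was higher in VHL-negative than in VHL-positive cells, 1.49-fold under DMSO (log2 0.57, SE 0.18, adjusted p = 0.0235) and 1.61-fold under JQ1 (log2 0.69, SE 0.18, adjusted p = 0.00672). The libraries overlapped under DMSO, where the highest VHL-positive value lay just above the lowest VHL-negative one, and not under JQ1. The DMSO call was lost when VHL-positive replicate 1 or 3 or VHL-negative replicate 2 or 3 was left out (adjusted p = 0.0613 to 0.128).

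STEAP3 (ENSG00000115107, chromosome 2, 119223831 to 119265652) reduces ferric iron in the endosome. Its level was 146, 187 and 157 CPM in VHL-positive DMSO libraries and 136, 129 and 133 CPM with JQ1. VHL-negative libraries fell from 211, 161 and 154 CPM with DMSO to 79.9, 62.4 and 69.9 CPM with JQ1, with a wide gap between the groups. The decrease there was 2.48-fold (log2 -1.31, SE 0.15, adjusted p = 8.84e-06). For the VHL-positive line the change was -0.30 (SE 0.15, adjusted p = 0.134), although these libraries did not overlap either. It passed with total counts alone (-0.41, adjusted p = 0.0157), with only these groups fitted (-0.32, adjusted p = 0.0489) and with protein-coding genes alone (-0.34, adjusted p = 0.0354). Under JQ1, STEAP3 was 1.87-fold lower in VHL-negative than in VHL-positive cells (log2 -0.91, adjusted p = 0.000167), whereas under DMSO the difference was 0.10 (adjusted p = 0.637). STEAP3-AS1 overlaps 11% of its exon bases.

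SLC11A2 (ENSG00000110911, chromosome 12, 50979401 to 51028566) encodes DMT1, which moves ferrous iron out of the endosome. Its level was 41.7, 43.8 and 40.9 CPM in VHL-positive DMSO libraries and 28.3, 26.8 and 30.6 CPM with JQ1. VHL-negative libraries gave 56.4, 49.4 and 50.3 CPM with DMSO and 38.2, 31.1 and 32.3 CPM with JQ1. All JQ1 libraries lay below all DMSO libraries. The decrease was 1.48-fold in VHL-positive cells (log2 -0.56, SE 0.12, adjusted p = 0.00235) and 1.53-fold in VHL-negative ones (log2 -0.62, SE 0.12, adjusted p = 0.00108). VHL-negative libraries were above VHL-positive ones under both treatments without overlap, by 0.30 under DMSO (adjusted p = 0.0663) and 0.25 under JQ1 (adjusted p = 0.113). These differences passed under several settings, among them total counts alone (0.36 with 0.0322, and 0.40 with 0.0157) and protein-coding genes alone (0.29 with 0.0237, and 0.37 with 0.00639).

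**Figure D2:**
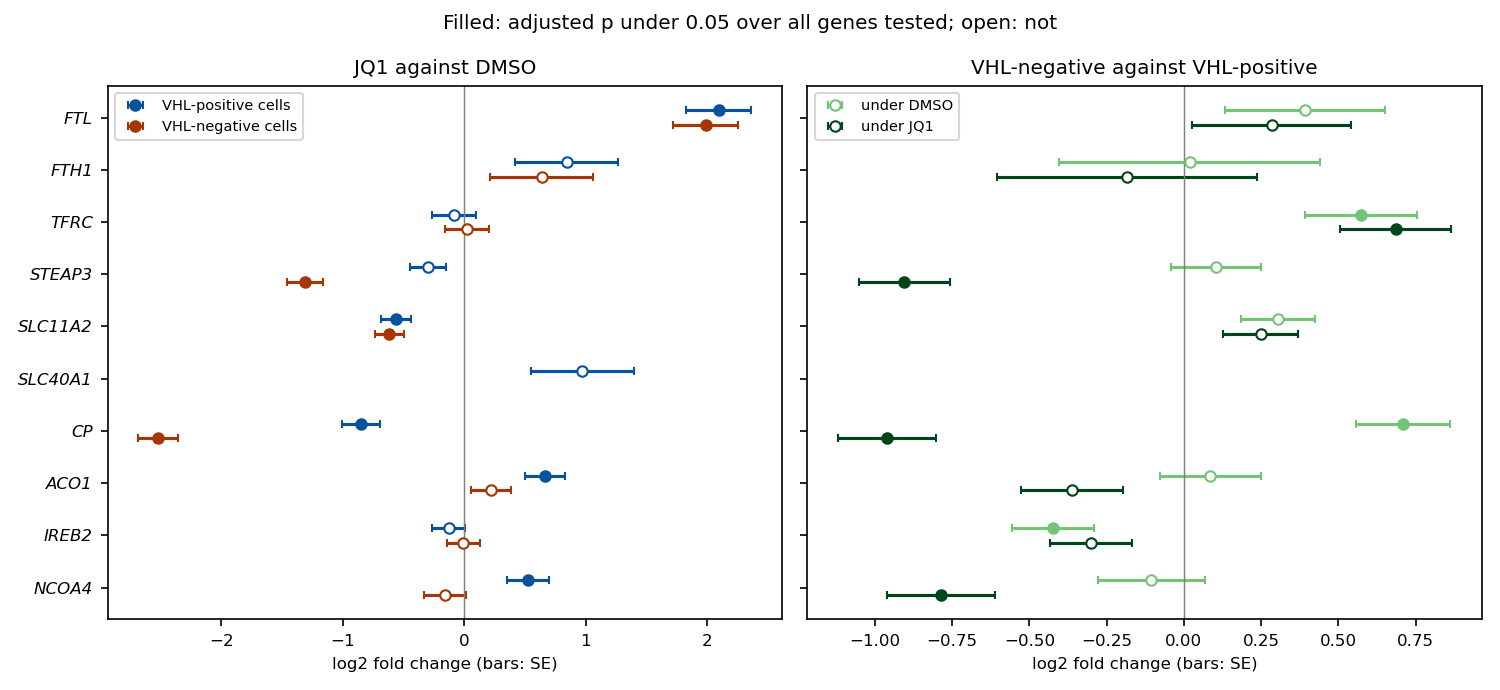
Log2 fold change with its SE for the 10 genes, JQ1 against DMSO in each line (left) and between the lines under each treatment (right, VHL-negative over VHL-positive); filled points have an adjusted p under 0.05 over all genes tested. SLC40A1 is drawn only in VHL-positive cells because its VHL-negative groups hold 2 and 6 counts. CP moves from higher under DMSO (log2 0.71) to lower under JQ1 (log2 -0.96) in VHL-negative cells.

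SLC40A1 (ENSG00000138449, chromosome 2, 189560579 to 189583758) encodes ferroportin, the only known iron exporter of mammalian cells. VHL-positive DMSO libraries held 78, 12 and 88 counts, or 2.85, 0.472 and 2.65 CPM, and JQ1 libraries 112, 90 and 72 counts, or 4.08, 3.65 and 4.13 CPM. VHL-negative libraries held 0, 1 and 1 counts with DMSO and 3, 0 and 3 with JQ1. Per unit of scaled depth, VHL-positive cells had 90.4 times as many counts under DMSO (178 against 2, exact 95% interval 24.7 to 752) and 47.1 times as many under JQ1 (274 against 6, 21.4 to 129). The intervals cover counting error only. The test across libraries gave adjusted p = 1.89e-05 under DMSO and 8.67e-06 under JQ1. With so few VHL-negative counts, SLC40A1 passed the filter only through its VHL-positive libraries. These p-values are therefore not independent support, and the counts per library are the description. With JQ1 in VHL-positive cells the change was 0.97 on the log2 scale (SE 0.43, adjusted p = 0.0950). VHL-positive DMSO replicate 2 was the low library, and without it the change was 0.54. The change passed with a replicate block (1.19, adjusted p = 0.0323), with limma-voom (1.29, adjusted p = 0.0344) and without the filter (0.97, adjusted p = 0.00949).

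CP (ENSG00000047457, chromosome 3, 149162410 to 149222055) encodes ceruloplasmin, a copper ferroxidase that helps exported iron onto transferrin. Its level was 42.4, 55.4 and 50.3 CPM in VHL-positive DMSO libraries and 30.7, 25.9 and 25.7 CPM with JQ1. In VHL-negative cells it was 85.3, 75.1 and 82.0 CPM with DMSO and 17.5, 11.7 and 12.9 CPM with JQ1. The 4 groups did not overlap, and their order was VHL-negative DMSO, VHL-positive DMSO, VHL-positive JQ1, VHL-negative JQ1. CP fell 1.80-fold in VHL-positive cells (log2 -0.85, SE 0.15, adjusted p = 0.000622) and 5.73-fold in VHL-negative ones (log2 -2.52, SE 0.16, adjusted p = 4.18e-08). VHL-negative cells had 1.64-fold more CP than VHL-positive cells under DMSO (log2 0.71, adjusted p = 0.00194) and 1.95-fold less under JQ1 (log2 -0.96, adjusted p = 0.000181). All these calls held with each library left out in turn. HPS3 overlaps 19.4% of the exon bases of CP, and 5.23% of its 50-base windows occur in 1 other gene.

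ACO1 (ENSG00000122729, chromosome 9, 32384603 to 32454769) encodes iron regulatory protein 1, which is cytosolic aconitase when it holds an iron-sulfur cluster. Its level was 81.3, 79.0 and 89.7 CPM in VHL-positive DMSO libraries and 141, 126 and 130 CPM with JQ1, a rise of 1.59-fold (log2 0.67, SE 0.16, adjusted p = 0.00559). VHL-negative libraries gave 95.1, 84.9 and 85.3 CPM with DMSO and 135, 75.4 and 99.1 CPM with JQ1. There the lowest JQ1 library, replicate 2, lay below all DMSO libraries, and the change was 0.22 (SE 0.16, adjusted p = 0.323). It was 0.41 without that library (adjusted p = 0.0437) and -0.03 without JQ1 replicate 1. Without JQ1 replicate 1, ACO1 was also lower in VHL-negative than in VHL-positive JQ1 cells (-0.62, adjusted p = 0.00213, against -0.36 and 0.0884 with it).

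IREB2 (ENSG00000136381, chromosome 15, 78437431 to 78501456) encodes iron regulatory protein 2, which is degraded when iron is plentiful. Its level was 91.1, 68.9 and 72.9 CPM in VHL-positive DMSO libraries and 74.1, 67.3 and 71.7 CPM with JQ1. VHL-negative libraries gave 50.2, 58.1 and 65.4 CPM with DMSO and 58.5, 58.2 and 56.3 CPM with JQ1. DMSO and JQ1 libraries overlapped in both lines, with changes of -0.13 (95% interval -0.39 to 0.13) and -0.0058 (-0.27 to 0.26). IREB2 was 1.34-fold lower in VHL-negative than in VHL-positive cells under DMSO (log2 -0.42, SE 0.13, adjusted p = 0.0237). This call was lost without VHL-positive replicate 1 (adjusted p = 0.129) or VHL-negative replicate 1 or 2 (0.113 and 0.0585), with total counts alone (-0.35, adjusted p = 0.132), with no filter (0.106) and in a fit of those groups alone (0.0594). Under JQ1 the difference was -0.30 (adjusted p = 0.0825), and it passed in a fit of the JQ1 groups alone (-0.29, adjusted p = 0.0275).

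NCOA4 (ENSG00000266412, chromosome 10, 46005088 to 46030714) encodes the receptor that carries ferritin to the lysosome, where its iron is released. Its level was 283, 237 and 325 CPM in VHL-positive DMSO libraries and 419, 389 and 409 CPM with JQ1, a rise of 1.44-fold (log2 0.53, SE 0.17, adjusted p = 0.0296). VHL-negative libraries gave 274, 237 and 275 CPM with DMSO and 303, 177 and 226 CPM with JQ1, with overlap (log2 -0.16, SE 0.17, adjusted p = 0.522). The call in VHL-positive cells was lost with total counts alone (0.41, adjusted p = 0.078) and in 5 of 6 fits that left out a library (adjusted p = 0.0556 to 0.107), all but the one without DMSO replicate 3. Under JQ1, NCOA4 was 1.73-fold lower in VHL-negative than in VHL-positive cells (log2 -0.79, SE 0.17, adjusted p = 0.00203), without overlap, and this held with each library left out. Under DMSO the difference was -0.11 (adjusted p = 0.692). In the main transcript, 8.55% of 50-base windows occur in 2 other genes.

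Between the lines, 2 of the 10 genes were higher and 2 lower in VHL-negative cells under DMSO, where 30.7% of all tested genes passed (14.8% higher and 15.9% lower). Those were TFRC and CP, and SLC40A1 and IREB2. Under JQ1, 1 was higher (TFRC) and 4 were lower (STEAP3, SLC40A1, CP and NCOA4). There 40.9% of all genes passed (19.7% higher and 21.2% lower). SLC40A1 is in both counts of lower genes, although it passed the filter only through its VHL-positive libraries. The median log2 difference was 0.095 under DMSO and -0.33 under JQ1, beside 0.0018 and 0.033 over all genes. In a fit of protein-coding genes alone, 40.5% of genes passed under DMSO and 48.2% under JQ1. The share of higher genes among all those that passed depended on scaling. With total counts alone it went from 48.1 to 34.1% for JQ1 in VHL-positive cells, from 48.1 to 62.1% between the lines under JQ1, and from 41.2 to 56.3% for the difference between the JQ1 effects.

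The JQ1 effect differed between the lines for 2 of the 10 genes, CP and STEAP3, both lower. Of all tested genes 1.21% passed (0.497% higher and 0.71% lower), and 2.11% in a fit of protein-coding genes alone. The difference, VHL-negative minus VHL-positive, was -1.67 for CP (SE 0.22, adjusted p = 0.00133), and this call held with each of the 12 libraries left out. For STEAP3 it was -1.01 (SE 0.21, adjusted p = 0.0283). That call was lost in 8 of 12 such fits (adjusted p = 0.0512 to 0.109), those without any 1 of the VHL-positive libraries other than DMSO replicate 2, VHL-negative DMSO replicate 1, or VHL-negative JQ1 replicate 2 or 3. For NCOA4 it was -0.68 (95% interval -1.16 to -0.20, adjusted p = 0.133) and for ACO1 -0.45 (-0.90 to 0.0068, adjusted p = 0.261). Without VHL-negative JQ1 replicate 1 both passed, at -0.93 (adjusted p = 0.0115) and -0.71 (adjusted p = 0.0198), so that 4 genes then differed; in that fit 16.2% of all tested genes passed. Over all 12 fits with a library left out this share ran from 0.199% (without VHL-negative JQ1 replicate 3) to 16.2%. For TFRC, SLC11A2 and IREB2 the differences were 0.11, -0.06 and 0.12, with SE of 0.25, 0.17 and 0.19. The JQ1 and line comparisons share libraries, so their values are not independent of each other.

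Compared per length, as CPM per kb of annotated exon, the genes spanned a wide range of levels. This length joins the exons of all annotated transcripts. It exceeded the main transcript by much for IREB2 (10.81 kb against 6354 bases) and SLC11A2 (10.14 kb against 4348 bases). The same held for NCOA4 (4.079 kb against 2307 bases), TFRC (7.887 kb against 5111), CP (7.296 kb against 4676) and FTH1 (2.03 kb against 1229). It did so little for ACO1 (7.555 kb against 7466 bases) and STEAP3 (4.562 kb against 4262 bases), and not for FTL (878 bases). The order of genes with near levels therefore depends on the length used. ACO1 and IREB2 are among them, as are STEAP3, TFRC and FTH1. In VHL-positive DMSO libraries FTL was highest at 1232 ± 300 CPM per kb (SD, n = 3), followed by NCOA4 at 69.1 ± 10.8. STEAP3 (35.8 ± 4.69), TFRC (34.5 ± 8.02) and FTH1 (30.8 ± 9.56) came next and differed by less than their spread. ACO1 was at 11.0 ± 0.747, IREB2 at 7.18 ± 1.10 and CP at 6.77 ± 0.899, the last pair within their spread. SLC11A2 was at 4.15 ± 0.150 and SLC40A1 at 0.460 ± 0.305. In VHL-negative DMSO libraries CP, at 11.1 ± 0.713, was above IREB2, at 5.36 ± 0.701. In VHL-negative JQ1 libraries CP, at 1.92 ± 0.417, was below SLC11A2, at 3.34 ± 0.377. The low place of FTH1 beside FTL carries the uncertainty of its count given above.

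**Figure D3:**
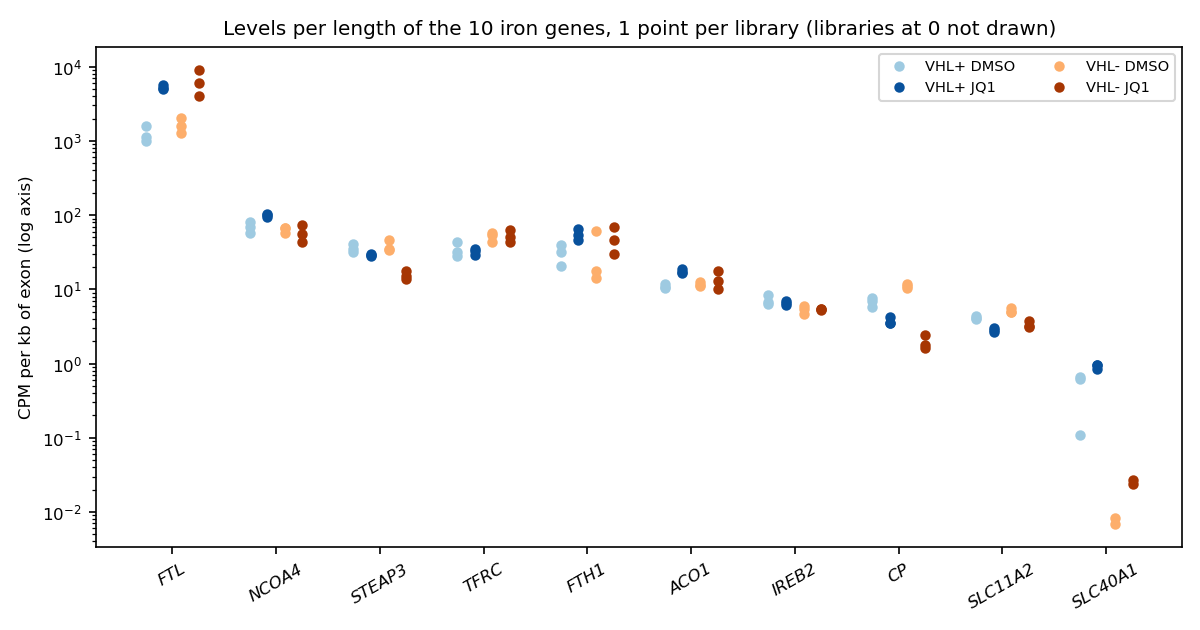
CPM per kb of exon (log axis) for the 10 genes, 1 point per library in 4 colours by group, ordered by the VHL-positive DMSO mean; libraries at 0 are not drawn. FTL lies far above the rest, and SLC40A1 in VHL-negative cells lies far below its VHL-positive libraries.

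The wider iron pathway was followed in 58 other genes of uptake, storage, export, sensing, iron-sulfur cluster and haem metabolism, of which 47 were tested. With JQ1, 12 rose and 6 fell in VHL-positive cells (median log2 0.14), and 8 rose and 11 fell in VHL-negative cells (median -0.13). These 38.3% and 40.4% stand beside 31.8% and 32.1% of all genes. All 47 are annotated as protein-coding, and in a fit of protein-coding genes alone 42.5% and 41.5% of genes passed. The count was 10 in VHL-positive cells without JQ1 replicate 1 and 11 without JQ1 replicate 3, and 12 in VHL-negative cells without JQ1 replicate 3, where 21.7%, 22.4% and 21.6% of all genes passed.

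Among uptake genes, 2 rose and 3 fell of 9 in VHL-positive cells, and 4 fell in VHL-negative cells. STEAP2, a ferrireductase of the STEAP3 family, fell in both (log2 -0.66 and -0.65), and SLC39A8, a metal importer, fell from 55.0 to 32.2 CPM in VHL-negative cells (log2 -0.77, adjusted p = 0.00166). SLC22A17, a receptor for lipocalin, rose in VHL-positive cells from a low level (log2 1.08, SE 0.28, adjusted p = 0.00727). Of 3 tested chaperone and ferritin turnover genes, 1 rose in VHL-negative cells, PCBP2, named here after its value was seen.

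In the export and hepcidin group, NEO1, a co-receptor of BMP signalling to hepcidin, rose from 52.1 to 103 CPM in VHL-positive cells (log2 0.99, adjusted p = 1.39e-05) and from 25.6 to 54.9 CPM in VHL-negative cells (log2 1.10, adjusted p = 4.56e-06). ERFE, the hormone erythroferrone that restrains hepcidin, fell from 41.2 to 15.7 CPM in VHL-positive cells (log2 -1.39, adjusted p = 3.91e-06), and fell in VHL-negative cells too (log2 -1.05, adjusted p = 5.07e-05). Hepcidin itself (HAMP) did not pass the filter. Among 5 sensing genes and messages with a known iron-responsive element, EPAS1, which encodes HIF-2α, rose in both lines, and in VHL-positive cells it went from 245 to 413 CPM (log2 0.76, adjusted p = 0.000701). CDC14A, a phosphatase, rose from 2.64 to 6.21 CPM in VHL-negative cells (log2 1.22, adjusted p = 0.000172) and passed in VHL-positive cells too (log2 0.71, adjusted p = 0.00997).

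Haem synthesis genes moved both ways. ALAD and UROS, enzymes that act before UROD, rose in VHL-positive cells (log2 1.06 and 0.86, adjusted p = 0.000248 and 0.000183), and both passed in VHL-negative cells too. UROD, the next enzyme, fell in both, from 102 to 64.5 CPM in VHL-positive and from 129 to 56.2 CPM in VHL-negative cells (log2 -0.66 and -1.20). HMOX1, the inducible enzyme that breaks haem down, fell from 208 to 106 CPM in VHL-negative cells (log2 -0.97, adjusted p = 0.00131) and from 86.0 to 54.5 CPM in VHL-positive ones (log2 -0.66, adjusted p = 0.0176).

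**Figure D4:**
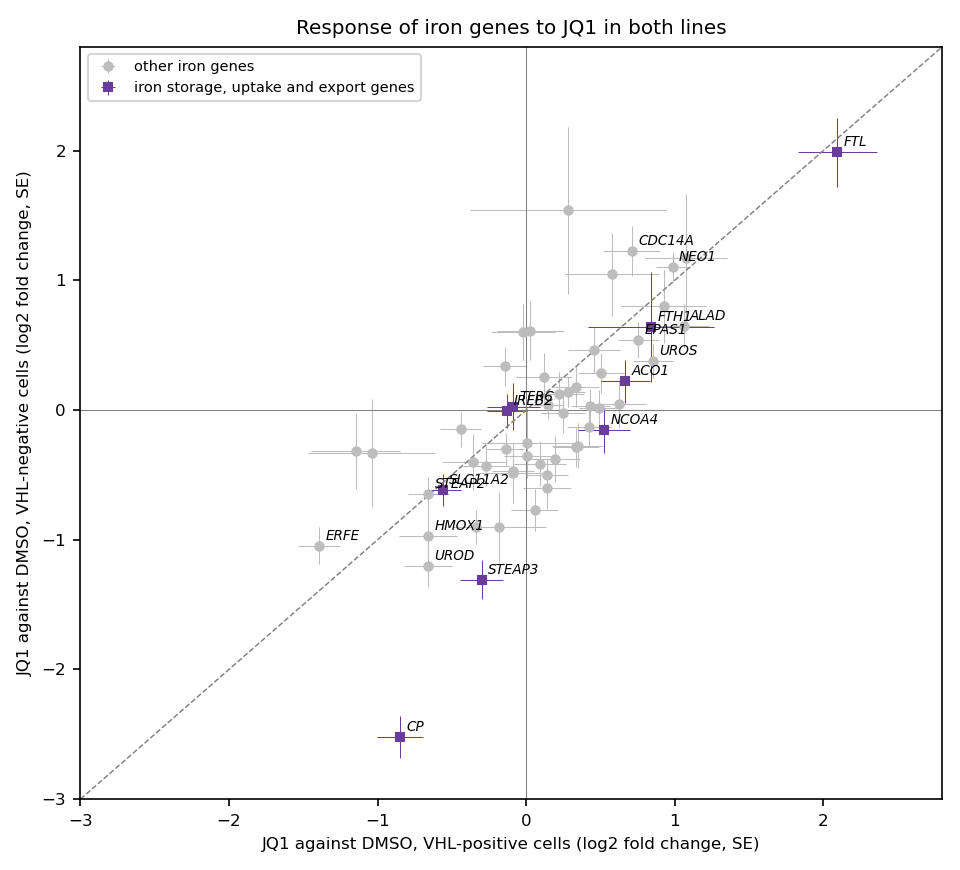
Log2 fold change with JQ1 in VHL-positive cells (horizontal) and VHL-negative cells (vertical) with SE, for 9 of the 10 genes (squares, SLC40A1 left out) and 47 other iron genes (circles); the dashed line marks equal change, and names are given for the 9 genes and for named genes that passed in both lines. FTL (log2 2.10 and 1.99) and SLC11A2 (log2 -0.56 and -0.62) lie near the line, and CP and STEAP3 lie below it.

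Between the lines, 11 of the 47 other genes were higher and 9 lower in VHL-negative cells under DMSO (14.8% and 15.9% of all genes). Under JQ1, 7 were higher and 16 lower (19.7% and 21.2% of all genes). Of protein-coding genes fitted alone, 40.5% passed in either direction under DMSO and 48.2% under JQ1. STEAP2 was higher under both (10.4 against 30.7 CPM under DMSO, log2 1.56, adjusted p = 1.45e-07), as was HMOX1 (86.0 against 208 CPM, log2 1.27, adjusted p = 0.000116). STEAP1, another member of the STEAP family, was also higher under both (log2 2.15 and 1.43). Lower under both were SLC22A17 (log2 -3.48 and -3.38), CDC42BPA, a kinase whose message carries an iron-responsive element (log2 -1.17 and -1.28), NEO1 (log2 -1.02 and -0.91) and ISCU, the scaffold for iron-sulfur cluster assembly (log2 -1.08 and -1.46). ERFE (log2 -0.90 and -0.56) and EPAS1 (log2 -0.70 and -0.92) were likewise lower under both. SLC22A17 held only 10 and 19 counts in the VHL-negative DMSO and JQ1 groups, so it passed the filter only through VHL-positive libraries. It is nevertheless in both counts of lower genes. FECH, which puts iron into haem, and LYRM4, a partner of the cluster enzyme NFS1, were lower under JQ1 (log2 -1.08 and -1.02); under DMSO their differences did not pass (log2 -0.33 and -0.45, adjusted p = 0.130 and 0.0581). For the difference between the JQ1 effects, 0 of 47 passed with edgeR, where 1.21% of all genes did, and 14 had an unadjusted p under 0.05. DESeq2 called 3 of them and 5.74% of all genes. The smallest adjusted p was 0.0741, for SLC39A8. Without VHL-negative JQ1 replicate 1, 13 passed, where 16.2% of all genes did.

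The genes whose log2 CPM followed FTL most closely over the 12 libraries, among genes whose mean log2 CPM reached 4, were DCXR (Pearson r = 0.990), HCFC1R1 (0.984), MARCKSL1 (0.981), NQO2 (0.980) and SERTAD1 (0.975). HCFC1R1 went from 102 to 265 CPM with JQ1 in VHL-positive cells and from 114 to 256 CPM in VHL-negative cells. TFRC was followed most closely by ZNF101 (0.959), H2AC12 (0.943), ATAD2 (0.942), NCAPG2 (0.940) and MCUB (0.940). ATAD2, for one, had 99.2 and 91.3 CPM in VHL-positive cells with DMSO and JQ1, and 138 and 168 CPM in VHL-negative cells. These correlations were picked as the highest of all such genes, rest on 4 groups and share library depth, so they are descriptions.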

How the data were processed

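Total RNA depleted of ribosomal RNA was sequenced in 12 libraries, 3 per group. The deposited table holds raw counts per Ensembl gene, made by the authors. GRCh38 is the build, and featureCounts, Subread (2.0.3), the aligner STAR (2.7.8) and DESeq2 (1.30.1) are the tools, per the submitters' processing notes, which give no strand setting. Counts were analysed as deposited in R 4.3.3 with edgeR 4.0.16: TMM scaling, the filter on low counts by group (20714 of 60663 genes kept, holding 99.87% of counts), 1 mean per group over all 12 libraries, quasi-likelihood tests and Benjamini-Hochberg adjustment. A prior count of 2 was added for log2 CPM. The script was tested on simulated counts. Depth ran from 15452949 to 32502310 counts.

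The 10 genes and all lists were chosen with earlier results of these data known. The 10 genes are all named. Of the other iron genes, up to 8 that passed with the smallest p were named per comparison of 2 groups and up to 5 for the difference. A single gene that this rule names is not reported here. The 5 genes most like FTL and TFRC, and 2 pseudogenes of highest mean count, were also named. Positions, exon lengths and hairpins came from GENCODE 29. Alternatives were other scalings, filters and thresholds, DESeq2 1.42.0, limma-voom (limma 3.58.1), a replicate block, fits of the compared groups alone and leaving out each library. Protein-coding genes alone, and leaving out both VHL-positive DMSO replicate 2 and VHL-negative JQ1 replicate 2, were added after seeing the data. The authors' own comparison tables were not used.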

Additional observations from a re-analysis of the deposited data

Results flagged for a closer look

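The change with JQ1 differed between the lines by a test of the difference itself for 2 of the 10 genes. For CP the JQ1 effect in VHL-negative minus VHL-positive cells was -1.67 on the log2 scale (SE 0.22, edgeR adjusted p = 0.00133). For STEAP3 it was -1.01 (SE 0.21, edgeR adjusted p = 0.0283), a call that 8 of 12 fits with a library left out did not keep.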

How the results depend on the processing

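The numbers of the libraries did not clearly pair them. Over 12 same-numbered pairs, correlations of deviations ran from -0.26 to 0.33, and the best match had the same number in 12 of 36 cases. With 3 libraries per group, numbers without meaning would match in 1 of 3 cases. The 4 correlations over 0.1 were all of replicates 1 and 2, between VHL-negative DMSO and JQ1 and between the JQ1 groups of both lines. Whether some libraries were paired is therefore not settled. With the replicate block, 6 rather than 5 of the 10 genes passed for JQ1 in VHL-positive cells, SLC40A1 being added (1.19). In that fit 31% of all genes passed, beside 31.8% without the block. FTH1 between lines under DMSO was -0.19 with the block. The count of the 10 genes that passed was 2 at an adjusted p under 0.01 between lines under DMSO, where it was 4 at 0.05, and 1 for the difference between JQ1 effects, where it was 2. The count of other iron genes at 0.01 was 11 with JQ1 in VHL-negative and 10 in VHL-positive cells. The share of all genes at 0.01 was not taken, so nothing particular to the lists is read from these lower counts. At 0.05, the count of other iron genes for the difference was 2 with no filter and 3 with DESeq2, where edgeR gave 0. Over fits without 1 library, the counts of the 10 genes ran from 1 to 4 for the difference (4 without VHL-negative JQ1 replicate 1). Between lines under DMSO they ran from 2 to 4. They were 2 without VHL-positive DMSO replicate 1 or VHL-negative DMSO replicate 2, where 25.1% and 24.1% of all genes passed. Counts of the other iron genes ran from 0 to 13 for the difference. With JQ1 in VHL-negative cells they ran from 12 to 26. The ends were without JQ1 replicate 3 and JQ1 replicate 1 of that line, where 21.6% and 37.3% of all genes passed. With JQ1 in VHL-positive cells they ran from 10 to 17. The ends were without JQ1 replicate 1 and DMSO replicate 1 of that line, where 21.7% and 27.4% of all genes passed. For the difference, 0.199 to 16.2% of all tested genes passed in these fits, the highest share again without VHL-negative JQ1 replicate 1, beside 2.77% with no filter and 5.74% with DESeq2. The cause was not tested.

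Reversals touched only values that had not passed. Among them, FTH1 between lines under DMSO was -0.01 with total counts alone, -0.25 with limma-voom and 0 with a filter of 1 CPM in 3 libraries, with the compared groups alone or with protein-coding genes alone, and its difference was 0 with limma-voom. With total counts alone the SLC11A2 difference was 0.04 and TFRC with JQ1 in VHL-negative cells -0.02 (-0.03 with no filter). With the 1 CPM filter the SLC11A2 difference was 0.01, and IREB2 with JQ1 in VHL-negative cells 0.04 (0 with limma-voom). The SLC40A1 difference was -0.08 with limma-voom. With protein-coding genes alone, differences were 0.01 for FTL and 0.07 for SLC11A2, and IREB2 was 0.08 with JQ1 in VHL-negative cells. Without the 2 libraries left out together, FTH1 between lines under JQ1 was 0.07, the FTL difference 0.25, NCOA4 with JQ1 in VHL-negative cells 0.02 and TFRC with JQ1 in VHL-positive cells 0.13.

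Over fits without 1 library, signs changed within these ranges. With JQ1 in VHL-negative cells they were -0.03 to 0.41 for ACO1, -0.10 to 0.06 for IREB2, -0.39 to 0.03 for NCOA4 and -0.14 to 0.16 for TFRC. With JQ1 in VHL-positive cells they were -0.19 to 0 for IREB2 and -0.20 to 0.13 for TFRC. Between lines under DMSO they were -0.94 to 0.36 for FTH1, -0.21 to 0.01 for NCOA4 and -0.05 to 0.22 for STEAP3, and under JQ1 -0.54 to 0.07 for FTH1 and -0.07 to 0.53 for FTL. For the difference they were -0.56 to 0.74 for FTH1, -0.47 to 0.13 for FTL, -0.02 to 0.20 for IREB2, -0.18 to 0 for SLC11A2 and -0.11 to 0.23 for TFRC. Total counts alone moved the median of all genes from -0.027 to -0.14 with JQ1 in VHL-positive cells and from 0.033 to 0.19 between lines under JQ1.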
